A study of Homo sapiens with 7 samples.

Results

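The EGF receptor family consists of 4 receptor tyrosine kinases, EGFR, ERBB2, ERBB3 and ERBB4, and was described here together with 6 of its ligands, AREG, EREG, HBEGF, TGFA, BTC and NRG1. Members were found by gene symbol in the array annotation, and only probe sets with that symbol alone were used. This gave 9 of the 10 genes, among 18417 genes on the array, whereas AREG was not among the single-gene probe sets of the annotation used here. The values come from 7 Human Gene 1.0 ST arrays of SUM159, a breast cancer cell line of the triple-negative, mesenchymal type. The cells carried a doxycycline-inducible lentiviral vector with 1 hairpin against SHP2 (SHP2 sh1, 2 arrays), another hairpin against SHP2 (SHP2 sh2, 3 arrays) or a control hairpin (Ctrl shRNA, 2 arrays). All 3 groups received doxycycline for 15 days in 2D culture, so the control cells shared the vector, the drug and the culture time. The sources do not say whether a line was 1 clone or whether replicate arrays stand for separate cultures. The p-values therefore rest on the scatter among these arrays, part of which may be technical.

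The ligands are made as membrane-bound precursors, and proteases such as ADAM10 and ADAM17 release them. A ligand brings receptors together in pairs, which phosphorylate each other on tyrosines and recruit adaptors such as GRB2, SHC1 and GAB1. SHP2, the phosphatase encoded by PTPN11, acts below these receptors and is needed for full activation of RAS and ERK. EREG, HBEGF, TGFA and BTC bind EGFR (all but TGFA also bind ERBB4), NRG1 binds ERBB3 and ERBB4, and ERBB2 has no known soluble ligand and pairs with the other receptors. Several of the ligand genes are themselves induced by ERK signalling, which forms an autocrine loop in many carcinoma lines.

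The unit throughout is log2 expression from robust multi-array averaging (RMA), in which a difference of 1 is a doubling. PTPN11 read 7.90 and 6.93 in SHP2 sh1 cells and 7.96, 7.20 and 7.89 in SHP2 sh2 cells, against 9.53 and 9.18 in Ctrl shRNA cells. The targeted gene was thus lower on all 5 SHP2 hairpin arrays than on both control arrays, with a log2 fold change averaged over both hairpins of -1.80 (adjusted p = 0.758 from limma). The second replicate of each SHP2 hairpin (replicate 2 of SHP2 sh1 and of SHP2 sh2) stood apart from the other 5 arrays, with correlations to them over all probe sets of 0.930 to 0.965 and 0.886 to 0.936, whereas the 5 correlated with each other at 0.981 to 0.992. The 2 arrays that stood apart were closer to each other, at 0.972. On these 2 arrays the median difference from the control mean was -0.61 and -1.01 for the brightest 25% of genes and 0.26 and 0.53 for the dimmest 25%. All 6 mesenchymal markers examined (VIM, ZEB1, CDH2, CD44, FN1 and AXL) were above the 95th percentile of 341 olfactory receptor genes, 6.45, which served as a range of background signal, by their mean over the 7 arrays. The same held for 4 of 8 epithelial markers (KRT8, KRT18, KRT19 and GATA3), for 1 of 4 measured blood cell markers (CD68) and for 0 of 4 endothelial markers. EPCAM, CDH1, ESR1 and PGR, which mark epithelial and hormone receptor-positive cells, had means below the limit of 6.45. On the 2 arrays that stood apart CDH1 read 7.42 and 7.12, above the limit. ESR1 read 6.19 and 6.73 there and was above it only on SHP2 sh2 replicate 2. CDH1 and ESR1 both belong to the dimmest 25% of genes. The mean over the epithelial markers was 6.60 to 6.98 on the SHP2 sh1 arrays and 6.73 to 6.97 on the SHP2 sh2 arrays, against 6.54 and 6.63 on the Ctrl shRNA arrays. Its members differed in direction on the arrays that stood apart, with differences from the control mean of 2.16 and 1.87 for CDH1 and -0.77 and -0.82 for KRT18. The mean over the mesenchymal markers was 10.22 to 10.54 on the SHP2 sh1 arrays and 9.60 to 10.71 on the SHP2 sh2 arrays, against 10.37 and 10.47 on the Ctrl shRNA arrays, and was lowest on SHP2 sh2 replicate 2. The part of these markers in the results below was not tested. In bulk RNA, fewer cells that express a gene and less RNA per cell cannot be told apart.

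NRG1, the neuregulin that activates ERBB3 and ERBB4, was lower with both SHP2 hairpins. It read 6.85 and 5.96 in SHP2 sh1 cells and 6.07, 6.74 and 6.85 in SHP2 sh2 cells, against 7.89 and 8.30 in Ctrl shRNA cells. The 5 SHP2 hairpin arrays lay below both controls, and the gap between the highest of them and the lower control was 1.04. SHP2 sh1 cells had a mean of 6.41 ± 0.63 (SD, n = 2) and SHP2 sh2 cells one of 6.55 ± 0.43 (SD, n = 3), against 8.09 ± 0.29 (SD, n = 2) in Ctrl shRNA cells. For the mean of both hairpins the level was 3.06-fold lower, with a log2 fold change of -1.61 (95% interval -2.42 to -0.81, standard error 0.34). The mean of NRG1 over the 7 arrays, 6.95, was above 99.4% of the olfactory receptor genes. However, 5.96 on SHP2 sh1 replicate 2 and 6.07 on SHP2 sh2 replicate 1 are below the limit of 6.45. The fold change was thus read in part at background level, and its size is not firm. NRG1 ranked 13 of 18417 genes by p (unadjusted p = 0.0023 from limma), but it did not pass over all genes (adjusted p = 0.758). By hairpin the value was -1.69 with SHP2 sh1 (-2.64 to -0.73) and -1.54 with SHP2 sh2 (-2.42 to -0.67).

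NRG1 was low on the 3 SHP2 hairpin arrays that resembled the controls as well as on the 2 that stood apart. Its difference from the control mean was -1.24, -2.03 and -1.24 on SHP2 sh1 replicate 1 and SHP2 sh2 replicates 1 and 3, and -2.13 (SHP2 sh1) and -1.36 (SHP2 sh2) on the arrays that stood apart. Without these 2 arrays the log2 fold change for the mean of both hairpins was -1.44. NRG1 had 2 probe sets. The one with the larger interquartile range, which is used here, is annotated with 1 transcript record, and the other with 20. The other set read 7.34 and 6.75 in SHP2 sh1 cells and 6.57, 6.83 and 7.34 in SHP2 sh2 cells, against 7.78 and 8.18 in Ctrl shRNA cells. It was again below both controls on the 5 SHP2 hairpin arrays, with smaller log2 fold changes of -0.93 with SHP2 sh1 (standard error 0.34) and -1.07 with SHP2 sh2 (standard error 0.31), and -1.0001 for the mean of both (standard error 0.29). Both sets were tied between SHP2 sh1 replicate 1 and SHP2 sh2 replicate 3, and whether they share probes on the array is not known from the files, so they are not counted as independent measurements. Equal values on a pair of arrays were common, being found for 34.6% of genes.

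**Figure D1:**
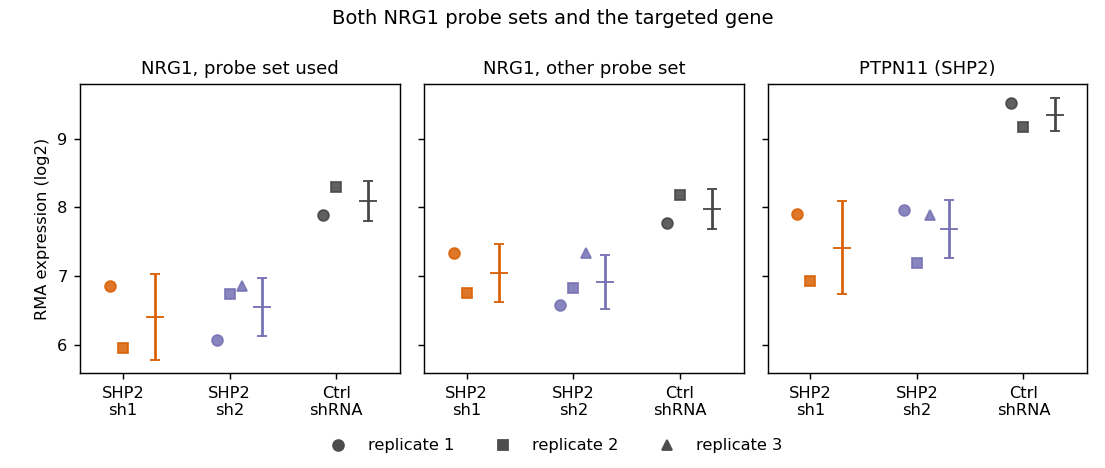
RMA expression (log2) of both NRG1 probe sets and of PTPN11 on each array by group, where symbols tell replicates apart and bars give the mean and SD of a group. All 5 SHP2 hairpin arrays lie below both control arrays in each panel, and with SHP2 sh2 the difference is smaller in the NRG1 set that was not used (log2 fold change -1.07) than in the one used (-1.54).

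EREG, HBEGF and TGFA, which encode epiregulin, heparin-binding EGF-like growth factor and transforming growth factor alpha, spread widely between the arrays of a hairpin, most of all with SHP2 sh1. EREG read 11.11 and 7.25 in SHP2 sh1 cells and 8.54, 7.16 and 9.35 in SHP2 sh2 cells, against 9.81 and 10.18 in Ctrl shRNA cells. With SHP2 sh1 one array was above both controls and the other below both, whereas all 3 SHP2 sh2 arrays were below both, by at least 0.47. For EREG the log2 fold change was -1.65 with SHP2 sh2 (95% interval -4.35 to 1.06) and -0.82 with SHP2 sh1 (-3.78 to 2.15).

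HBEGF read 11.47 and 7.91 in SHP2 sh1 cells and 9.78, 8.12 and 10.41 in SHP2 sh2 cells, against 10.33 and 9.89 in Ctrl shRNA cells. Both hairpin groups overlapped the controls, and the lowest array of each was replicate 2. For HBEGF the log2 fold change was -0.42 with SHP2 sh1 (-3.28 to 2.44) and -0.67 with SHP2 sh2 (-3.28 to 1.94), and with SHP2 sh2 it was -0.01 without replicate 2.

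TGFA read 7.96 and 6.24 in SHP2 sh1 cells and 6.81, 6.59 and 7.32 in SHP2 sh2 cells, against 7.79 and 7.71 in Ctrl shRNA cells. As for EREG, all 3 SHP2 sh2 arrays were below both controls and the SHP2 sh1 arrays lay on either side of them. For TGFA the log2 fold change was -0.84 with SHP2 sh2 (-2.03 to 0.36, adjusted p = 0.667 from limma) and -0.64 with SHP2 sh1 (-1.95 to 0.67, adjusted p = 0.995).

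The 3 ligands followed one another from array to array. Over the 7 arrays Pearson's correlation was 0.964 between EREG and TGFA, 0.941 between EREG and HBEGF and 0.895 between HBEGF and TGFA. Without the 2 arrays that stood apart it was 0.933, 0.774 and 0.648 over 5 arrays. Such values were not particular to these ligands. ERBB3 and ERBB4, both within background, correlated at 0.974 over the 7 arrays and 0.747 without the 2. BTC, also within background, correlated at -0.88 with EREG and -0.86 with HBEGF, and at -0.84 with each without the 2. All are descriptions over arrays that share 3 groups and a normalization. On SHP2 sh1 replicate 1 the differences of EREG, HBEGF and TGFA from the control mean were 1.11, 1.36 and 0.22, whereas on replicate 2 of this hairpin they were -2.74, -2.20 and -1.51. EREG and HBEGF are among the brightest 25% of genes, whose median was -0.61 on this array, and the part of that shift in their values was not tested. SHP2 sh1 replicate 2 decides the direction with this hairpin. Without it the values of replicate 1 are all that is left, and each of the 3 fold changes is then above 0. With SHP2 sh2 the log2 fold change without both arrays that stood apart was -1.05 for EREG and -0.68 for TGFA. It then rests on replicates 1 and 3, which differed from the control mean by -1.46 and -0.65 for EREG and -0.94 and -0.42 for TGFA. The median of the brightest 25% of genes on these replicates was -0.18 and -0.04.

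**Figure D2:**
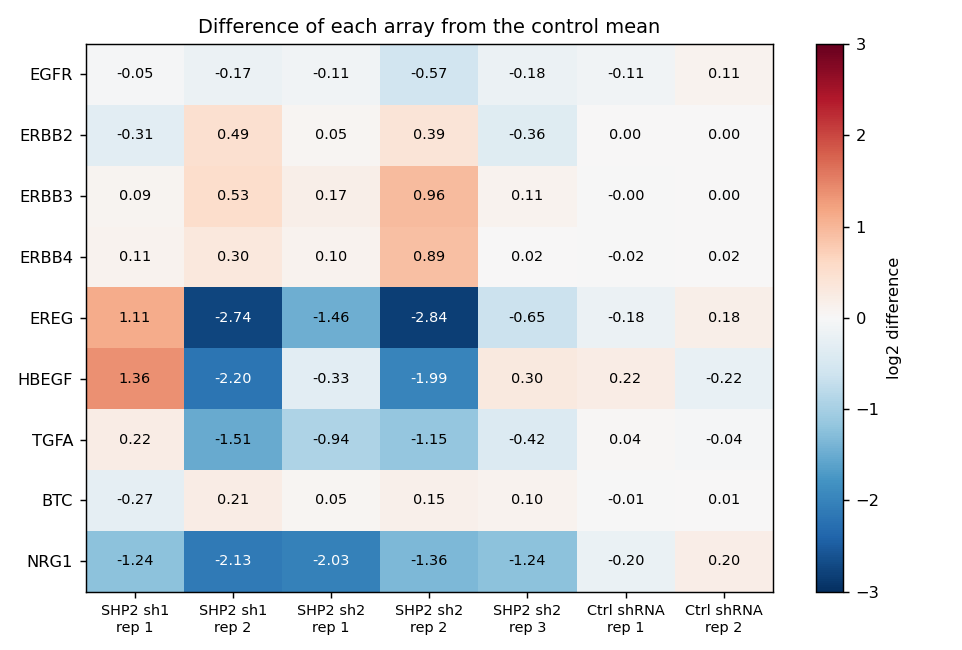
Difference of each array from the mean of the 2 Ctrl shRNA arrays (log2) for the 9 measured members, one row per gene and one column per array. NRG1 differs from the control mean by -1.24 to -2.13 on the SHP2 hairpin arrays, whereas EREG, HBEGF and TGFA lie above it on SHP2 sh1 replicate 1 and lowest on the replicate 2 arrays.

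Since the study asked about ETS1 as a factor below SHP2, the members' promoters were read for motifs of factors that ERK signalling acts on. The windows ran from 250 bases before to 50 bases after a RefSeq start site (GRCh38.p14). Both strands were searched for the AP-1 motif TGANTCA, the ETS motif CCGGAAG and the cAMP response element TGACGTCA, of which the first and last share their outer letters TGA and TCA. They occurred in 7.71%, 10.3% and 1.85% of 35116 such windows. No window was found for ERBB3 and NRG1, so their promoters were not searched. Windows were found for 8 of the 10 members, with 2 starts each for EGFR and TGFA. None of the 3 motifs was found in those of EREG, HBEGF or TGFA, which says only that these letters are not in these windows. The AREG window held 1 cAMP response element, and the ERBB2 window held 2 ETS motifs facing opposite ways and 1 AP-1 motif farther upstream. The second EGFR start held 2 AP-1 motifs, and the first none of the 3. The 150 bases before the start are shown 5′ to 3′ for EREG, HBEGF and TGFA, the EGFR ligands above background (for TGFA, before its upstream start) and for ERBB2 as the member with ETS motifs, with motif matches in capitals.
EREG, chr4:74364995-74365144, forward strand: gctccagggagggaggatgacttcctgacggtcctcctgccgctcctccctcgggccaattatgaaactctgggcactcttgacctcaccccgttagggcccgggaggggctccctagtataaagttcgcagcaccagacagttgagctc
HBEGF, chr5:140346604-140346753, reverse strand: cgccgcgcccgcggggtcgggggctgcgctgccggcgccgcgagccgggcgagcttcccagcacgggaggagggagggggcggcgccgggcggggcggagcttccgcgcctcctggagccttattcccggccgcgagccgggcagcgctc
TGFA, chr2:70553827-70553976, reverse strand: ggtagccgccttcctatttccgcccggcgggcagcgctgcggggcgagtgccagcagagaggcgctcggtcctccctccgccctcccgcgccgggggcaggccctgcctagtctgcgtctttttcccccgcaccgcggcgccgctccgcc
ERBB2, chr17:39687944-39688093, forward strand: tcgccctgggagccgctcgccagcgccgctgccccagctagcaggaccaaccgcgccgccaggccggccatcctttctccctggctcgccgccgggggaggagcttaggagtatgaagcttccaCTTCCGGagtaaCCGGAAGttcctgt
A match is a description of the letters and not evidence that a factor binds. The difference in ERBB2 expression given below was close to 0, with arrays on both sides of the controls.

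BTC, which encodes betacellulin, had a mean of 5.12 over the 7 arrays, above 59.8% of the olfactory receptor genes and so within the range of background. It read 4.82 and 5.30 in SHP2 sh1 cells and 5.14, 5.24 and 5.19 in SHP2 sh2 cells, against 5.08 and 5.09 in Ctrl shRNA cells. The log2 fold change for the mean of both hairpins was 0.04 (95% interval -0.42 to 0.49) and turned to -0.13 under cyclic loess, another way of normalizing the arrays. At this level no direction can be read from it.

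EGFR, the receptor of EREG, HBEGF, TGFA and BTC, was above all olfactory receptor genes and varied little between arrays. It read 9.64 and 9.52 in SHP2 sh1 cells and 9.58, 9.12 and 9.50 in SHP2 sh2 cells, against 9.58 and 9.80 in Ctrl shRNA cells. The hairpin groups overlapped or touched the controls, and the lowest value came from SHP2 sh2 replicate 2. The log2 fold change for the mean of both hairpins was -0.20 (95% interval -0.68 to 0.28) and changed sign to 0.12 under cyclic loess.

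ERBB2, the receptor amplified in HER2-positive but not in triple-negative tumours, read 7.50 and 8.29 in SHP2 sh1 cells and 7.85, 8.20 and 7.44 in SHP2 sh2 cells, against 7.81 in both Ctrl shRNA samples. Arrays of each hairpin lay on both sides of the controls, and the highest of each hairpin was replicate 2. For the mean of both hairpins the log2 fold change was 0.06 (-0.65 to 0.77), and it was -0.23 without the 2 arrays that stood apart.

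ERBB3, whose kinase is weak and which signals through its partners, read 5.52 and 5.96 in SHP2 sh1 cells and 5.60, 6.39 and 5.54 in SHP2 sh2 cells, against 5.43 and 5.44 in Ctrl shRNA cells. The 5 SHP2 hairpin arrays were above both controls, by as little as 0.09. ERBB4 read 5.51 and 5.71 in SHP2 sh1 cells and 5.51, 6.30 and 5.42 in SHP2 sh2 cells, against 5.38 and 5.43 in Ctrl shRNA cells, so that 1 SHP2 sh2 array reached the controls.

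The mean of ERBB3 over the 7 arrays, 5.70, was above 82.4% of the olfactory receptor genes, and that of ERBB4, 5.61, above 80.4%, so both are within the range of background. The log2 fold change for the mean of both hairpins was 0.36 for ERBB3 (-0.32 to 1.04) and 0.27 for ERBB4 (-0.38 to 0.93). Both genes belong to the dimmest 25% by control level, which lay 0.26 and 0.53 above the control mean on the arrays that stood apart. ERBB3 lay 0.53 and 0.96 above it on these arrays, against 0.09, 0.17 and 0.11 on the other 3. Without the 2 arrays the log2 fold changes were 0.12 and 0.08. The part of the shift of dim genes in these values was not tested.

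**Figure D3:**
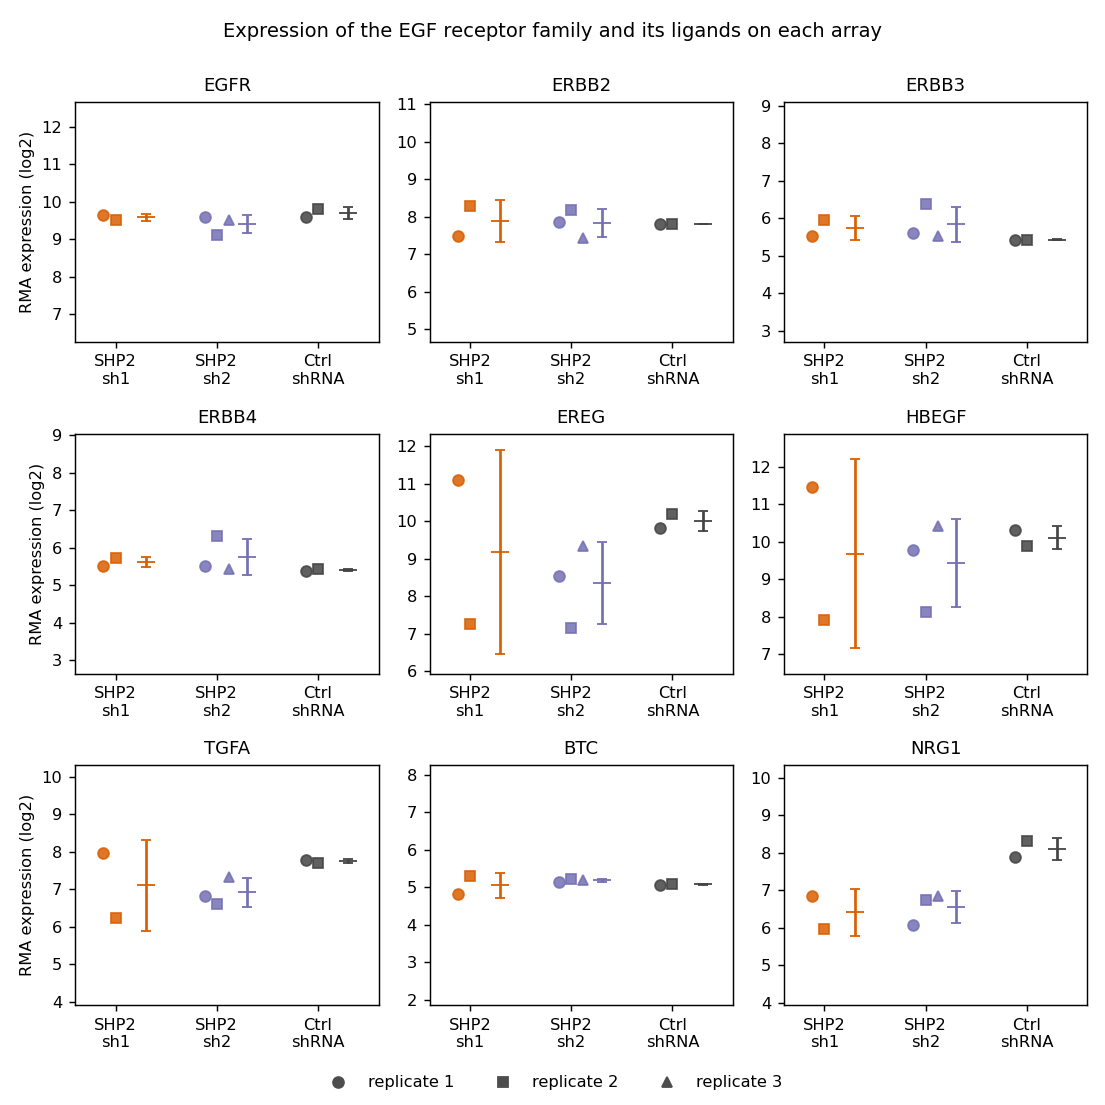
RMA expression (log2) of the 9 measured members on each array by group, every panel spanning the same number of log2 units, where symbols tell replicates apart and bars give the mean and SD of a group. NRG1 is the member whose SHP2 hairpin arrays lie clearly below the controls, while EREG, HBEGF and TGFA spread widely within a hairpin and EGFR and BTC hardly vary.

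Set against all genes, the counts of members are as follows. None of the 9 measured members (0) reached an adjusted p under 0.05 in limma with either hairpin, for their mean or between them, and the share of all genes that did was 0% in each. At an unadjusted p under 0.05, NRG1 alone passed with SHP2 sh1 (1.09% of all genes passed), with SHP2 sh2 (2.35%) and for the mean of both (1.94%), and no member passed between the hairpins (0.63%). The comparisons with control share the same 2 Ctrl shRNA arrays. NRG1 was the only member with all 5 SHP2 hairpin arrays below both controls (7.17% of all genes) and ERBB3 the only one with all 5 above (8.13%).

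By hairpin, 1 member (NRG1) was lower on both SHP2 sh1 arrays than on both controls (12.3% of all genes) and 2 (ERBB3 and ERBB4) were higher on both (12.8%). With SHP2 sh2, 3 members (EREG, TGFA and NRG1) were lower on all 3 arrays (16.1% of all genes) and 2 (ERBB3 and BTC) were higher on all 3 (24.2%). Between the hairpins the arrays of every measured member overlapped, where 2.21% of all genes were higher and 3.08% lower on all SHP2 sh2 arrays. The log2 difference of SHP2 sh2 from SHP2 sh1 ran from -0.83 for EREG (95% interval -3.54 to 1.87) to 0.14 for NRG1 (-0.73 to 1.02). The median log2 fold change for the mean of both hairpins was -0.20 over the 9 members, beside 0.075 over all genes. Without the 2 arrays that stood apart it was -0.094 over the members and 0.0018 over all genes. With single arrays left out, the members' median ran from -0.31 (without Ctrl shRNA replicate 1) to -0.087 (without Ctrl shRNA replicate 2), and it was -0.13 without SHP2 sh2 replicate 2. The median was -0.74 over the 5 measured ligands and 0.17 over the 4 receptors, but -0.094 and -0.0059 without both arrays that stood apart, so that the contrast between ligands and receptors rests on them. Without SHP2 sh1 replicate 2 alone it was -0.27 over the ligands and 0.041 over the receptors, and without SHP2 sh2 replicate 2 alone -0.66 and 0.050. Without SHP2 sh1 replicate 1 it was -1.43 over the ligands and 0.29 over the receptors, and without SHP2 sh2 replicate 3 it was -0.84 and 0.25.

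**Figure D4:**
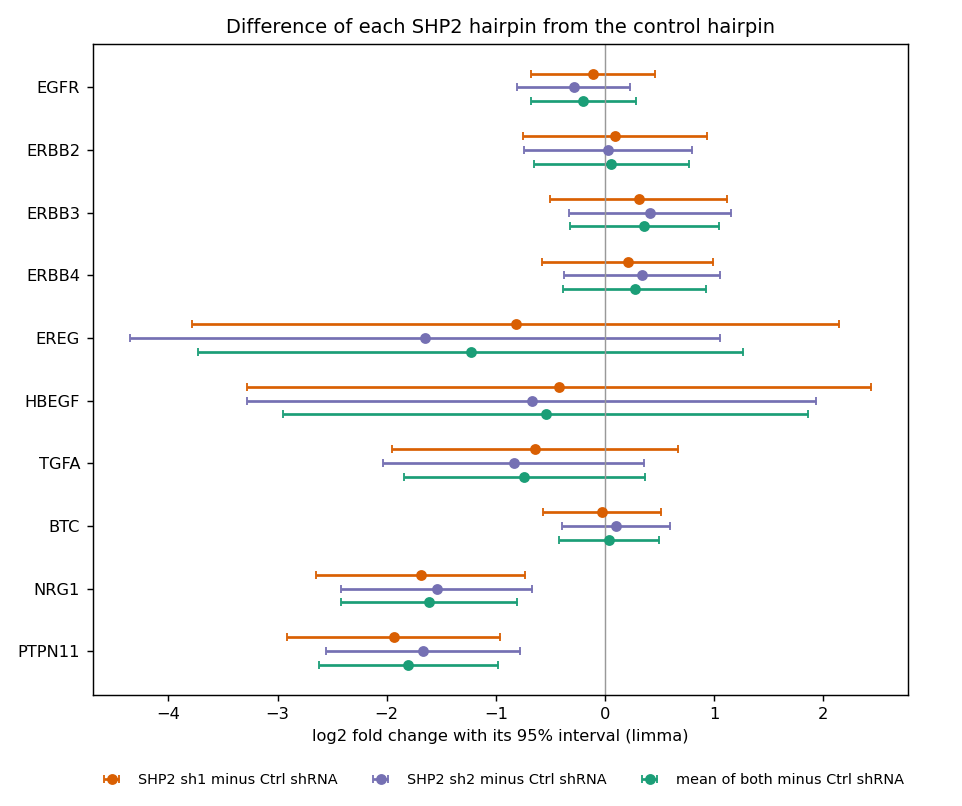
Log2 fold change of each SHP2 hairpin and of the mean of both against Ctrl shRNA for the 9 measured members and PTPN11, with 95% intervals from limma before any adjustment. The intervals of NRG1 and PTPN11 lie below 0 in all 3 comparisons, and those of the other members span 0, widest for EREG and HBEGF.

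Of the other EGF family ligands, 5 of 5 (EGF, EPGN, NRG2, NRG3 and NRG4) were measured and 0 passed the threshold over all genes. All 5 had a log2 fold change above 0 averaged over both hairpins, with a median of 0.28 (0.16 without SHP2 sh2 replicate 2). The hairpins differed for NRG4, at 0.55 with SHP2 sh1 and -0.47 with SHP2 sh2, and for EPGN, at 1.26 and 0.18. With Ctrl shRNA replicate 1, SHP2 sh1 replicate 1 or SHP2 sh2 replicate 1 left out, 4 were above 0 and 1 below 0. Over all genes 10691 of 18417 were above 0 and 7726 below 0, which holds beside the counts of the further lists too. EGF, EPGN, NRG3 and NRG4 were within the range of background. They belong to the dimmest 25%, whose median lay 0.26 and 0.53 above the control mean on the 2 arrays that stood apart. NRG2, a second neuregulin, read 7.48 and 7.79 in SHP2 sh1 cells and 7.53, 8.03 and 7.58 in SHP2 sh2 cells, against 7.42 and 7.18 in Ctrl shRNA cells. Its log2 fold change for the mean of both hairpins was 0.37 (standard error 0.22), with all 5 SHP2 hairpin arrays above both controls (8.13% of all genes). EPGN, which encodes epigen, read 5.49 and 4.11 in SHP2 sh1 cells and 3.44, 3.51 and 4.20 in SHP2 sh2 cells, against 3.55 and 3.54 in Ctrl shRNA cells, and its mean was above only 18.5% of the olfactory receptor genes.

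Of 8 genes for the release of ligands, 0 passed over all genes. Averaged over both hairpins, 6 were below 0 and 2 above 0, and the median log2 fold change was -0.21. ADAM10, a protease that frees EGF and betacellulin, read 10.53 and 8.30 in SHP2 sh1 cells and 9.80, 7.99 and 9.84 in SHP2 sh2 cells, against 10.30 and 10.25 in Ctrl shRNA cells. ADAM9, another protease of this family, had a log2 fold change of -0.87 (standard error 0.69). Both belong to the brightest 25% of genes and were lowest on the replicate 2 arrays of each hairpin.

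Of 11 receptor inhibitors and turnover genes, 0 passed, with 8 below 0, 3 above 0 and a median of -0.33. ERRFI1, which binds and inhibits the EGFR kinase and is induced by ERK signalling, read 11.20 and 8.16 in SHP2 sh1 cells and 9.51, 7.60 and 10.02 in SHP2 sh2 cells, against 10.55 and 10.71 in Ctrl shRNA cells. Like EREG and HBEGF, it belongs to the brightest 25% of genes and was highest on SHP2 sh1 replicate 1 and lowest on both replicate 2 arrays. SOCS4, which promotes the degradation of EGFR, had a log2 fold change of -0.73 (standard error 0.50).

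Of 10 measured receptor-proximal adaptors and effectors, 0 passed, with 7 below 0 and 3 above 0 and a median of -0.35. PTPN11, the targeted gene, is among them. GAB2, a docking protein that binds SHP2, read 6.67 and 6.77 in SHP2 sh1 cells and 6.64, 6.85 and 6.69 in SHP2 sh2 cells, against 6.30 in both Ctrl shRNA samples. Its log2 fold change was 0.42 for the mean of both hairpins (standard error 0.16, adjusted p = 0.758 from limma). All 5 SHP2 hairpin arrays were above both controls, as for 8.13% of all genes. The medians of the lists of ligand release, receptor inhibitors and adaptors were -0.57, -0.51 and -0.56 on SHP2 sh1 replicate 2 and -1.01, -0.79 and -0.75 on SHP2 sh2 replicate 2, and between -0.17 and 0.14 on the other 3 SHP2 hairpin arrays. Without these 2 arrays the medians over both hairpins were -0.018 for ligand release, -0.095 for receptor inhibitors and 0.041 for adaptors. Without SHP2 sh1 replicate 2 alone the adaptors' median was -0.052, and without SHP2 sh2 replicate 2 alone it was -0.073 for ligand release.

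Of 8 early genes that EGF induces through ERK, 0 passed, with 6 below 0 and 2 above 0 and a median of -0.17. MYC, a transcription factor of growth, was below both controls on all 5 SHP2 hairpin arrays, as were 7.17% of all genes. It read 9.79 and 9.53 in SHP2 sh1 cells and 9.77, 9.35 and 9.78 in SHP2 sh2 cells, against 10.09 and 10.31 in Ctrl shRNA cells. FOSL1, an AP-1 subunit, had a log2 fold change of 0.30 (standard error 0.21). The median of this list against the control mean was 0.51 and -0.69 on SHP2 sh1 replicates 1 and 2, and -0.36, -0.98 and -0.08 on SHP2 sh2 replicates 1, 2 and 3. SHP2 sh1 replicate 1 was the only SHP2 hairpin array on which it was above 0, as it was for EREG, HBEGF and TGFA together. Over both hairpins the median of the early genes was 0.27 without the 2 arrays that stood apart and 0.14 without SHP2 sh1 replicate 2 alone, so that its direction turned without that array. It was -0.0055 without Ctrl shRNA replicate 2 and -0.52 without SHP2 sh1 replicate 1. By hairpin the median was 0.050 with SHP2 sh1 and -0.39 with SHP2 sh2. Most of the early genes belong to the brightest 25%, and the part of the shift of bright genes in these medians was not tested.

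**Figure D5:**
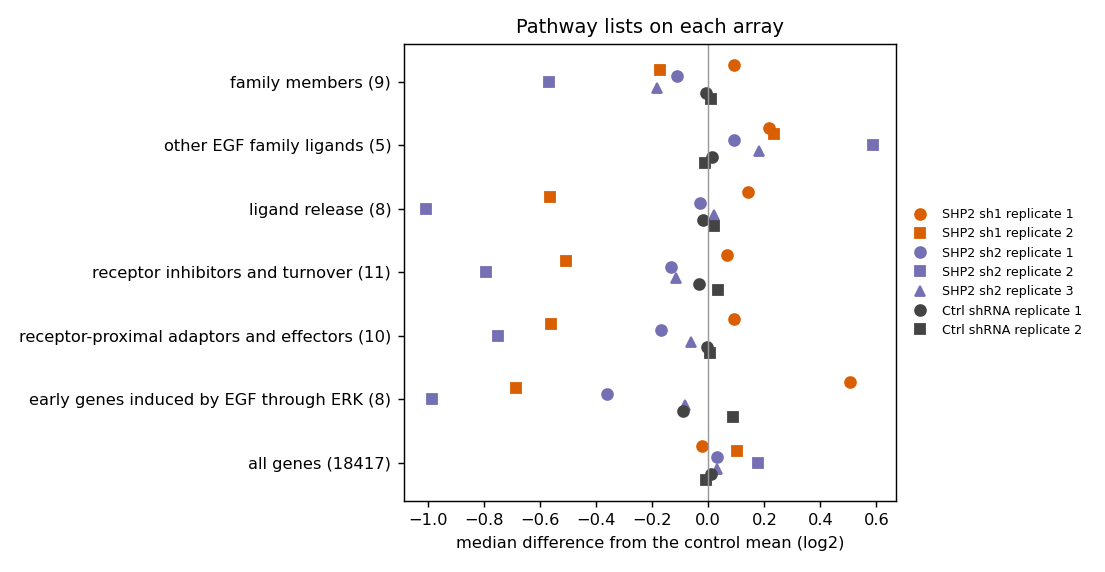
Median log2 difference from the Ctrl shRNA mean of the 9 measured members, 5 pathway lists and all genes on each array, with the number of genes in brackets, groups told apart by colour and replicates by symbol. The early genes induced by EGF reach 0.51 in the first SHP2 sh1 replicate and -0.98 in the second SHP2 sh2 replicate, while the other EGF family ligands lie above 0 on all 5 SHP2 hairpin arrays. The brightest 25% of genes (not shown) had medians of -0.61 and -1.01 on replicate 2 of SHP2 sh1 and of SHP2 sh2.

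Among all 18417 genes, those whose values followed EGFR most closely over the 7 arrays were MAP3K4, YEATS2 and GALNT11, with Pearson's correlations of 0.998, 0.998 and 0.995. For EREG, the member with the widest range over the arrays (3.95), they were GBE1, DTWD1 and IL7, at 0.998, 0.996 and 0.996. Without the 2 arrays that stood apart the 6 correlations were between 0.981 and 0.998 over 5 arrays. These genes are the closest of many over few arrays, so the values describe the arrays and carry no test.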

How the data were processed

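RNA of SUM159 cells was hybridized to 7 arrays after 15 days of doxycycline. The deposited log2 values were made by the authors by robust multi-array averaging in oligo, with no version given in the sources used here. Symbols of the platform annotation were updated through gene IDs (19429 of 19460 single-gene probe sets found in RefSeq, GRCh38.p14). Following the study's methods, each gene was represented by its probe set of largest interquartile range. A model with 3 group means was fitted to the 7 arrays over all 18417 genes in limma 3.58.1 (R 4.3.3) with eBayes, two-sided, with Benjamini-Hochberg adjustment and a threshold of 0.05. The procedure was tested on simulated data. The number of arrays limits the precision. Members, lists and alternatives were chosen with earlier results of these data known. All measured members, and in each further list up to 4 genes past the threshold or else the 2 of smallest p, were named. The 17 alternatives cover the probe set, cyclic loess, median centring, leaving out dim genes, a variance trend, array weights, only the arrays compared, a replicate block and arrays left out.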

Additional observations from a re-analysis of the deposited data

How the results depend on the processing

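All values are log2 fold changes, and the causes of the changes were not tested. The count of called genes was 0 in all 4 comparisons under each alternative, except 122 with SHP2 sh2 under gene-by-gene array weights, NRG1 (-1.89, adjusted p = 0.034 from limma) and PTPN11 (-1.41) among them. In SHP2 sh2 these weights were 6.73 for replicate 1, 1.39 for replicate 3 and 0.12 for replicate 2. The weighted SHP2 sh2 mean thus rests mostly on replicate 1, where NRG1 differed from the control mean by -2.03. The adjusted p of NRG1 with SHP2 sh2 ran from 0.034 to 1 over the alternatives. NRG1 was below 0 against Ctrl shRNA under all of them, from -2.13 to -0.93 with SHP2 sh1, from -1.89 to -1.07 with SHP2 sh2 and from -1.84 to -1.0001 for the mean, the smallest size coming from its other probe set and the range with single arrays left out being -1.84 to -1.39. The filter on dim genes left out NRG1, ERBB3, ERBB4 and BTC.

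The replicate number was not shown to pair the arrays, since deviations of same-numbered arrays from their group means correlated at -0.06 to 0.02 between controls and hairpins. Between hairpins they correlated at 0.62 and 0.85. In a group of 2 arrays the deviations mirror each other, so these values are not separate checks. Both arrays that stood apart are numbered replicate 2, and their part in the values between hairpins was not tested. With the replicate block 0 genes were called, NRG1 was -1.69 for the mean, and between hairpins ERBB2 was 0.13 and NRG1 -0.0074.

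Directions turned as follows. Under cyclic loess EGFR was 0.15 (SHP2 sh1), 0.092 (SHP2 sh2) and 0.12 (mean), BTC -0.12 (SHP2 sh2) and -0.13 (mean), and ERBB3 between hairpins -0.010. Under array weights ERBB2 was -0.017 with SHP2 sh2, and between hairpins ERBB3 was -0.14, ERBB4 -0.11, HBEGF 0.18 and NRG1 -0.20. With the NRG1 probe set of higher mean, NRG1 between hairpins was -0.13. Without both arrays that stood apart, the values with SHP2 sh1 were -0.31 (ERBB2), 1.11 (EREG), 1.36 (HBEGF) and 0.22 (TGFA), ERBB2 with SHP2 sh2 was -0.16, those for the mean were -0.23 (ERBB2), 0.029 (EREG), 0.67 (HBEGF) and -0.094 (BTC), and those between hairpins were 0.15 (ERBB2), -0.046 (ERBB4) and -0.39 (NRG1).

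Leaving out single arrays gave, with SHP2 sh1, -0.22 to 0.0036 for EGFR, -0.31 to 0.49 for ERBB2, -2.74 to 1.11 for EREG, -2.20 to 1.36 for HBEGF, -1.51 to 0.22 for TGFA and -0.27 to 0.21 for BTC. ERBB2 ran from -0.16 to 0.22 with SHP2 sh2. For the mean, ERBB2 ran from -0.14 to 0.26, HBEGF from -1.43 to 0.35 and BTC from -0.082 to 0.16. Between hairpins the ranges were -0.46 to 0.34 (ERBB2), -0.17 to 0.32 (ERBB3), -0.14 to 0.29 (ERBB4), -2.76 to 1.10 (EREG), -2.03 to 1.53 (HBEGF), -1.05 to 0.67 (TGFA), -0.11 to 0.37 (BTC), -0.30 to 0.59 (NRG1) and -0.21 to 0.75 (PTPN11).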
